A study of Mus musculus with 15 samples.

Results

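Splicing factor and hnRNP genes were compared between cells of the mouse medial cortex at stage E11.5 that had bound annexin V and cells that had not. The members are the gene symbols of the count table that begin with Srsf, Hnrnp, Snrpa to Snrpg, Snrnp, Sf3a, Sf3b or U2af, without pseudogene names ending in -ps. The pattern matched 65 symbols, 3 pseudogene names were left out, and 62 of the 55367 symbols in the table remained. They fall into 11 SR protein genes, 20 hnRNP genes, 19 genes of small nuclear ribonucleoprotein (snRNP) proteins and 12 genes of SF3 and U2AF. Of these, 61 are annotated as protein-coding, and Snrpert is annotated as a processed pseudogene although its name does not say so.

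Introns are removed from nascent transcripts by the spliceosome, which is built from snRNPs. Most snRNPs hold a small nuclear RNA, a ring of Sm proteins and further proteins of their own. SR proteins carry a domain rich in arginine and serine and bind mostly exons, where they help to define splice sites. The hnRNP proteins coat nascent RNA and often oppose the use of nearby splice sites, and SF3 and U2AF recognise the branch site and the 3′ end of the intron. Cycling progenitors and young neurons of the developing cortex are known to splice many transcripts differently.

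All libraries came from C57BL/6 embryos and were made in bulk by an adapted smart-seq2 protocol, in which whole cDNA molecules are amplified from little RNA. The tested cells, here called AnnexinV-positive, had annexin V on phosphatidylserine of the outer membrane and excluded propidium iodide (PI), a dye that enters broken cells (6 libraries). The other cells carried neither stain and are called double-negative (6 libraries). How many embryos, sorts or cells lie behind a library is not given in the sources used here, so p-values reflect only how these libraries vary, and some of that variation may be technical. The labels do not sort 3 further samples, which were not analysed here.

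AnnexinV-positive libraries had 190694 to 444412 counts and 9145 to 10065 detected genes, and double-negative libraries had 88193 to 329813 counts and 6571 to 8887 detected genes. A single ribosomal RNA (rRNA) gene held 21.5% to 41.3% of the counts in AnnexinV-positive libraries and 22.3% to 43.6% in double-negative libraries. Its share was 23.0%, 22.3% and 28.4% in double-negative libraries 1 to 3, against 39.3%, 43.6% and 37.7% in 4 to 6. Double-negative libraries 1 to 3 also stand apart, with 11.998% to 30.8% of their counts in haemoglobin genes, against at most 0.00964% in each of the other 9. Double-negative libraries 3 and 5 had the fewest detected genes. The summed level of 8 markers of post-mitotic neurons was 302 to 792 CPM (counts scaled to a common library size) in AnnexinV-positive libraries against 1682 to 3896 CPM in double-negative libraries, with 6 of the 8 genes past the threshold and lower in AnnexinV-positive cells. For 8 markers of cycling cells the sums were 1569 to 2939 CPM (AnnexinV-positive) against 146 to 1622 CPM (double-negative), with 2 of 8 past the threshold and higher. For 8 markers of radial glia and neuroepithelium they were 1340 to 2346 CPM (AnnexinV-positive) against 575 to 1812 CPM (double-negative), with 0 of 7 tested past it (edgeR). Of these 7, 5 had a positive log2 fold change (AnnexinV-positive minus double-negative), and Sox2 (−0.50) and Pax6 (−0.03) had a negative one. The 8 blood markers summed to at most 93.1 CPM in AnnexinV-positive libraries and reached 538595 CPM in a double-negative one. The library sizes behind CPM hold only tested genes, and no blood marker was tested, so this sum is not a share of all counts. The rRNA gene was tested, so its counts are part of those library sizes. Markers of endothelium, mesenchyme and macrophages summed to 0 to 769.7 CPM (AnnexinV-positive) against 0 to 12.5 CPM (double-negative), with Dcn at 0 in all libraries. What part these markers, haemoglobin, the rRNA gene and depth have in the results below was not tested. In bulk RNA fewer cells of a type cannot be told apart from less RNA per cell.

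No member passed the threshold. Of the 62 members, 56 passed the filter on low counts, and 0 of these 56 had an adjusted p under 0.05 in edgeR's quasi-likelihood test, against 71 of all 3800 tested genes (1.87%; 15 higher in AnnexinV-positive cells, 0.395%, and 56 lower, 1.47%). At an unadjusted p under 0.05 there were 4 members of 56 (7.14%), where all tested genes gave 595 (15.7%). The 4 are Snrnp48, Hnrnpu, Snrpd1 and Snrpf. DESeq2 also called 0 members, with the same 4 at an unadjusted p under 0.05, although it called 201 of 3800 genes (5.29%). The groups' libraries overlapped for each of the 56 tested members, while 98 of 3800 genes (2.58%) had no overlap. Without double-negative libraries 1 to 3, and without double-negative libraries 3 and 5, the count of members past the threshold was 0 as well. Both fits called fewer genes than the 71 above, out of 5349 and 4736 tested. In these fits as in the main one, few of all tested genes passed. A count of 0 members lies near such low shares and says little about the members. In simulated data only 8.57% of 2-fold changes were found.

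The sign of the differences was uneven. The log2 fold change, AnnexinV-positive minus double-negative throughout, was positive for 41 of 56 members (73.2%), with a median of 0.24, against 53.3% of all tested genes, with a median of 0.06. The excess of positive signs was smaller within replicates 4 to 6, with 34 of 57 members (59.6%) against 52.3% of all genes tested there. Over all libraries the medians by family were 0.07 for SR protein genes, 0.14 for hnRNP genes, 0.59 for snRNP protein genes and 0.36 for SF3 and U2AF genes. These are descriptions of the lists, with no test over them, and single libraries moved several by over 1.5 times. The median of all members was 0.14 without double-negative library 5. The SR median was 0.03 without AnnexinV-positive library 2, 0.12 without AnnexinV-positive library 4, 0.04 without double-negative library 1 and 0.18 without double-negative library 4. The hnRNP median was 0.06, 0.08 and 0.09 without AnnexinV-positive library 2, double-negative library 2 and AnnexinV-positive library 3, in that order. The SF3 and U2AF median was 0.20 without double-negative library 1, and the snRNP median stayed between 0.48 and 0.76 when each library was left out in turn.

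**Figure D1:**
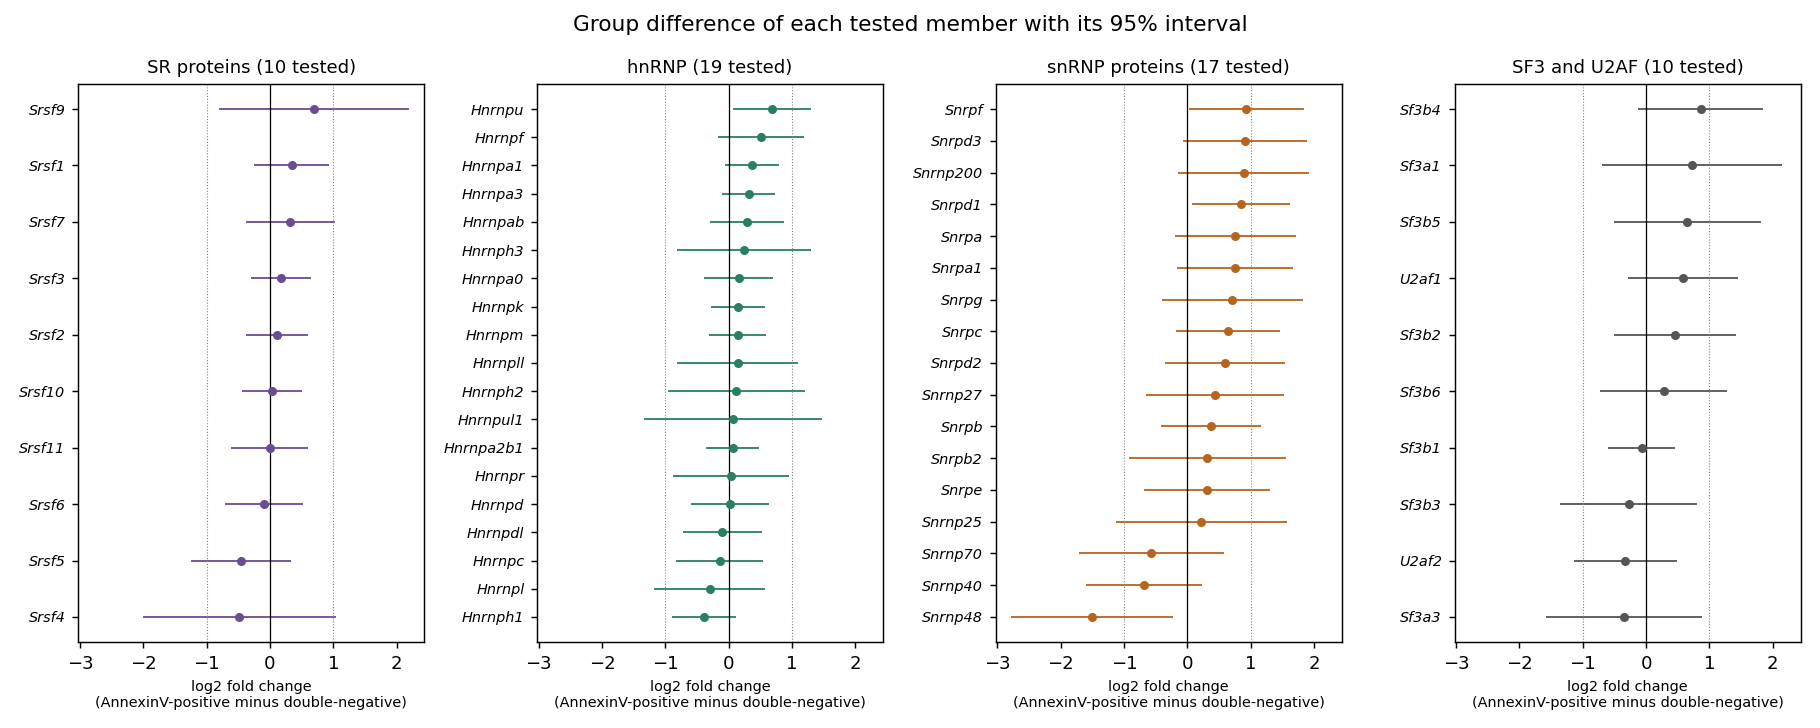
Log2 fold change (AnnexinV-positive minus double-negative, x axis) of each of the 56 tested members in 4 families, with bars for the 95% interval from edgeR and dotted lines at a 2-fold difference. The intervals of most SR and hnRNP genes lie close to 0. Those of snRNP genes are wider and mostly cross 0, with most of their points to the right of 0.

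How large a difference these data leave possible depends on the member. For 19 of 56 members (33.9%) the 95% interval of the log2 fold change, not adjusted for the number of genes, lay within a 2-fold difference in either direction, against 357 of all 3800 tested genes (9.39%). They were 12 of 19 hnRNP genes, 6 of 10 SR protein genes, 1 of 10 SF3 and U2AF genes and 0 of 17 snRNP protein genes. At a mean log2 CPM of 9 or more the share was 10 of 11 members and 86 of 152 genes. The median standard error (SE) was 0.30 for hnRNP and 0.30 for SR protein genes, and 0.48 for snRNP protein and 0.48 for SF3 and U2AF genes. For each of the 17 tested snRNP genes the interval reached past a 2-fold difference, so a missing call does not show that the groups are alike.

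**Figure D2:**
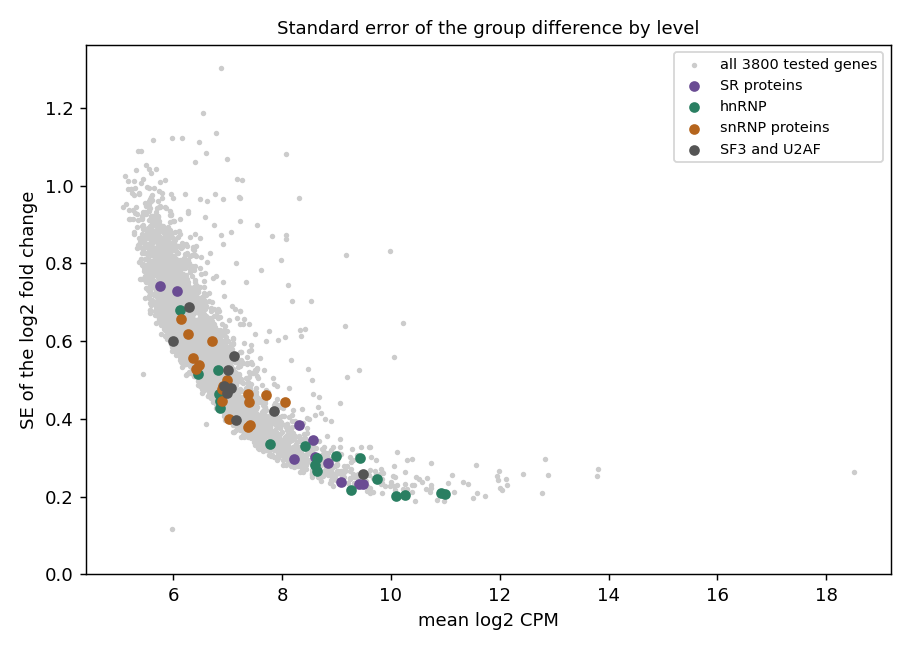
Standard error of the log2 fold change (y axis) against mean log2 CPM (x axis) for the 3800 tested genes in grey and the 56 members in colour. The abundant hnRNP and SR protein genes sit at the low end of the errors, and the snRNP genes in the middle, among other genes of their level.

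The hnRNP genes had the highest summed CPM of the 4 families in every library. Hnrnpa1, whose protein binds RNA along introns and exons and often represses exon inclusion, had 1889 CPM in the lowest, 2238 in the median and 2866 in the highest AnnexinV-positive library, against 1417, 1622 and 2627 CPM in double-negative libraries. Each of the 6 AnnexinV-positive libraries was above the double-negative median, yet double-negative library 4 was second only to AnnexinV-positive library 4. The log2 fold change was 0.36 (SE 0.21, 95% interval −0.06 to 0.79, adjusted p = 0.41 in edgeR). Hnrnpk, a poly-C binding protein, had 1704, 2039 and 2407 CPM (lowest, median and highest) in AnnexinV-positive libraries against 1287, 1926 and 2463 CPM in double-negative libraries. Double-negative libraries 2 and 5, at 1295.2 and 1287 CPM, lay below each AnnexinV-positive library and the other 4 overlapped with them. The log2 fold change was 0.15 (SE 0.21, interval −0.28 to 0.58).

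Hnrnpu, also known as scaffold attachment factor A, a nuclear protein that binds RNA and chromatin, had the largest log2 fold change of the hnRNP genes. It stood at 629, 870.1 and 1118 CPM (lowest, median and highest) in AnnexinV-positive libraries and at 105, 574 and 721 CPM in double-negative libraries. All 6 AnnexinV-positive libraries were above the double-negative median, and the lowest value of all was double-negative library 5, with 13 counts. The log2 fold change was 0.69 (SE 0.30, interval 0.07 to 1.31), with an adjusted p of 0.251 in edgeR. Over 27 alternative fits the value was at least 0.44, and the adjusted p was never below 0.103.

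Hnrnpa3, a close relative of Hnrnpa1, had 1240.3, 1338 and 1507 CPM (lowest, median and highest) in AnnexinV-positive libraries against 809 to 1320.4 CPM in double-negative libraries, with a log2 fold change of 0.32 (SE 0.20). Hnrnpf and Hnrnph1 encode related proteins that bind runs of G, and their values had opposite signs. Hnrnpf had 277, 365 and 544 CPM in AnnexinV-positive libraries against 114, 308 and 440.1 CPM in double-negative libraries, with a log2 fold change of 0.51 (SE 0.33). Hnrnph1 had 348, 754 and 1022 CPM in AnnexinV-positive libraries against 705, 928 and 1229 CPM in double-negative libraries, with a log2 fold change of −0.39 (SE 0.25, interval −0.90 to 0.11). Only 1 AnnexinV-positive library was above the double-negative median of Hnrnph1, yet its adjusted p was 0.466 and that of Hnrnpf 0.484 (edgeR).

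The remaining 13 tested hnRNP genes had log2 fold changes from −0.30 (Hnrnpl, which binds CA repeats) to 0.29 (Hnrnpab). Hnrnpa2b1, which encodes hnRNP A2 and B1, averaged 1111 ± 84.9 CPM in AnnexinV-positive libraries against 1065 ± 219.8 CPM in double-negative libraries (± SD, 6 libraries a group), and its SE of 0.20 was the smallest of the tested members (log2 fold change 0.06, interval −0.35 to 0.48). Hnrnpc, which binds runs of U and competes with U2AF, was below the double-negative median in all 6 AnnexinV-positive libraries, at 154 to 243 CPM against 99.99 to 299.5 CPM. Double-negative libraries 1 and 6, at 99.99 and 126 CPM, lay below each AnnexinV-positive library. Its log2 fold change was −0.14 (SE 0.33, interval −0.83 to 0.55). Hnrnpul2 did not pass the filter, with 51 counts in all AnnexinV-positive and 33 in all double-negative libraries.

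The SR protein genes lay on both sides of 0. Srsf1, a founding member of the family that binds exonic enhancers, had 412, 509 and 618 CPM (lowest, median and highest) in AnnexinV-positive libraries against 107, 396 and 583 CPM in double-negative libraries. All 6 AnnexinV-positive libraries were above the double-negative median, and the low end of the double-negative group was library 3, with 7 counts. Its log2 fold change was 0.34 (SE 0.29, interval −0.25 to 0.94, adjusted p = 0.616 in edgeR). Srsf3, the smallest SR protein, had 630.4 to 861 CPM in AnnexinV-positive libraries against 406 to 906 CPM in double-negative libraries, with a log2 fold change of 0.17 (SE 0.23). Srsf10, known for repressing splicing when it is dephosphorylated, had 593, 695 and 901 CPM in AnnexinV-positive libraries against 446, 679 and 1058 CPM in double-negative libraries. Its double-negative values lie on both sides of the AnnexinV-positive range (log2 fold change 0.03, SE 0.23).

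Srsf7, which also takes part in mRNA export, had 322 to 506 CPM in AnnexinV-positive libraries against 56.7 to 518 CPM in double-negative libraries (log2 fold change 0.32, SE 0.34). Srsf9 had 41.3 to 109 CPM in AnnexinV-positive libraries and 0 to 92.5 CPM in double-negative libraries, with 0 counts in double-negative libraries 3 and 5, where 1 count is worth 15.4 and 8.09 CPM. Its log2 fold change of 0.69 had an SE of 0.73. Srsf5 had 119, 240.3 and 436 CPM in AnnexinV-positive libraries against 56.7, 359 and 571 CPM in double-negative libraries, and its log2 fold change was −0.46 (SE 0.38, interval −1.25 to 0.33). The other 4 tested genes ran from −0.48 (Srsf4) to 0.12 (Srsf2), and Srsf12 had 2 counts in all AnnexinV-positive and 4 in all double-negative libraries. No SR protein gene had an unadjusted p under 0.05.

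**Figure D3:**
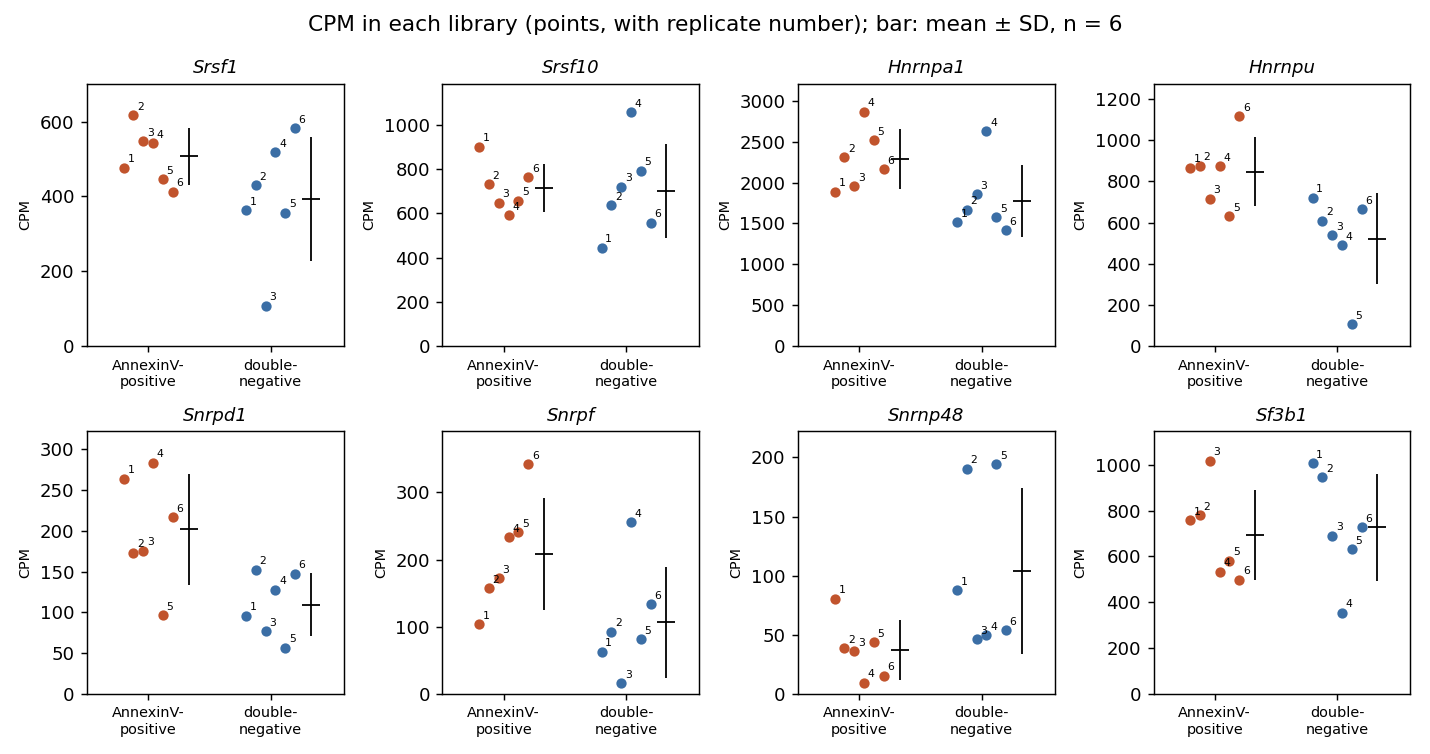
CPM (y axis, from 0) of 8 members in the 6 AnnexinV-positive (left) and 6 double-negative libraries (right); points carry the replicate number, and bars give the mean ± SD. In Snrpd1 and Snrpf 5 of 6 AnnexinV-positive points lie above the double-negative mean, in Snrnp48 all 6 lie below it, and in Srsf10 and Sf3b1 the AnnexinV-positive points overlap widely with the double-negative ones.

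The genes named Snrp, a part of the snRNP family, showed the most uniform sign, where 53.3% of all tested genes were positive. This part follows the spelling of the symbols and is not one of the 4 families set for the comparison, so its sign is a description only. All 7 tested genes of the Sm ring (Snrpb, Snrpd1, Snrpd2, Snrpd3, Snrpe, Snrpf and Snrpg) and all 4 genes of U1 and U2 snRNP proteins named Snrp (Snrpa, Snrpc, Snrpa1 and Snrpb2) had a positive log2 fold change, from 0.31 to 0.93, with a median of 0.71. The snRNP proteins named Snrnp were split, 3 positive and 3 negative, with a median of −0.17. The sign of that median was not stable: it was 0.06 without double-negative library 6, 0.05 without double-negative libraries 1 to 3, 0.13 within replicates 4 to 6, 0.38 without a filter and 0.09 in the deposited TPM values, and −0.37 with 2 of 6 positive without double-negative library 5. The summed level of the 19 snRNP genes was 2049, 2615 and 2840.4 CPM (lowest, median and highest) in AnnexinV-positive libraries against 1244, 1651 and 2643 CPM in double-negative libraries. Double-negative libraries 3 and 5, which had the fewest detected genes, had the lowest sums, and double-negative library 6 lay above 3 AnnexinV-positive libraries.

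Snrpd1, an Sm ring protein, had 96.4, 196 and 284 CPM (lowest, median and highest) in AnnexinV-positive libraries against 56.7, 112 and 152 CPM in double-negative libraries. AnnexinV-positive library 5 was below the double-negative median, and the other 5 were above the highest double-negative library. Snrpd1 had a log2 fold change of 0.85 (SE 0.38, interval 0.07 to 1.62, adjusted p = 0.27 in edgeR). Snrpf, a further ring protein, had 103, 203 and 342 CPM in AnnexinV-positive libraries against 15.4, 86.7 and 256 CPM in double-negative libraries, where the lowest value is 1 count in library 3. All 6 AnnexinV-positive libraries were above the double-negative median, with a log2 fold change of 0.93 (SE 0.44, interval 0.02 to 1.84, adjusted p = 0.301 in edgeR). Snrpd3 was similar in size, at 78.8, 137 and 247 CPM against 24.3, 70.9 and 151 CPM in double-negative libraries (log2 fold change 0.91, SE 0.48). Snrpd2 had 147 to 391 CPM in AnnexinV-positive libraries against 0 to 305 CPM in double-negative libraries (0.59, SE 0.46).

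Snrpa1, a protein of the U2 snRNP, was the most abundant of the snRNP genes by CPM. It had 205, 335 and 409.9 CPM (lowest, median and highest) in AnnexinV-positive libraries against 0, 186 and 381 CPM in double-negative libraries, with the 0 in library 5, and its log2 fold change was 0.76 (SE 0.44, adjusted p = 0.430 in edgeR). Snrnp200, the helicase that unwinds the U4/U6 duplex, had 78.8, 149.9 and 214 CPM in AnnexinV-positive libraries against 10.9, 81.5 and 179.8 CPM in double-negative libraries. Its log2 fold change of 0.89 (SE 0.50) had an adjusted p of 0.408 in edgeR.

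Snrnp48, a protein of the minor spliceosome, which removes a small class of introns, had the lowest log2 fold change of all members. It had 9.46, 37.3 and 80.4 CPM (lowest, median and highest) in AnnexinV-positive libraries against 46.1, 70.7 and 194 CPM in double-negative libraries, or 65 and 105 counts over the groups. AnnexinV-positive library 1 was above the double-negative median and the other 5 were below each double-negative library. Double-negative libraries 2 and 5, at 190.5 and 194 CPM, were far above the rest of their group. Snrnp48 had a log2 fold change of −1.51 (SE 0.62, interval −2.78 to −0.24, adjusted p = 0.218 in edgeR), and the lowest adjusted p over the alternatives was 0.0914, with DESeq2. Of the other minor spliceosome members, Snrnp25 had 0.22 (SE 0.66), and Snrnp35 did not pass the filter, with 18 and 1 counts over the AnnexinV-positive and double-negative libraries. The U1 protein gene Snrnp70 had −0.57 (SE 0.56), the U5 protein gene Snrnp40 −0.68 (SE 0.45) and Snrnp27 0.43 (SE 0.53). Snrpert was below the filter, with 25 and 10 counts.

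**Figure D4:**
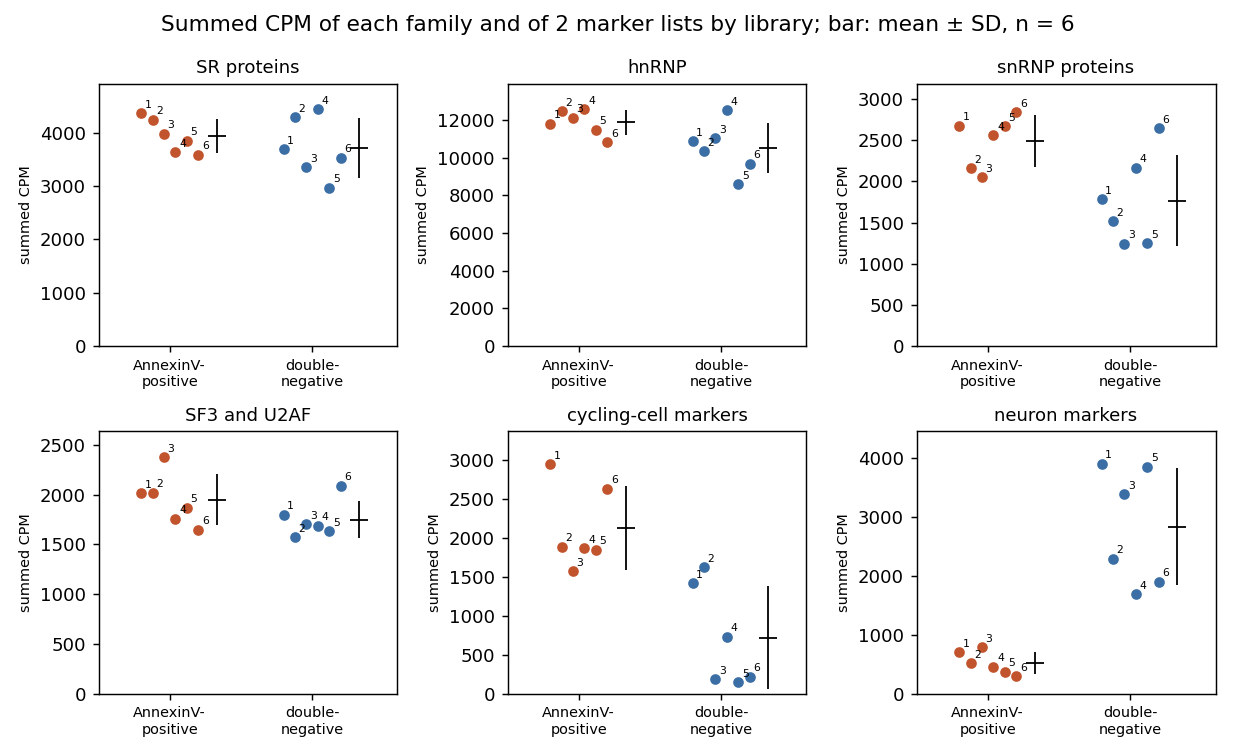
Summed CPM (y axis, from 0) of the 4 families and of the cycling-cell and neuron marker lists in AnnexinV-positive (left) and double-negative libraries (right); points carry the replicate number, and bars give the mean ± SD. The family sums of the groups overlap, the cycling-cell sums overlap at double-negative library 2, and the neuron sums do not overlap.

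The SF3 complexes hold the U2 snRNP at the branch site, and U2AF marks the end of the intron for it. Sf3b1, the large subunit that clamps the branch site, was the most abundant of these genes, with 498, 669 and 1017 CPM (lowest, median and highest) in AnnexinV-positive libraries against 355, 709 and 1008 CPM in double-negative libraries. Double-negative library 4 was the lowest and the other 5 lay within the AnnexinV-positive range, with a log2 fold change of −0.07 (SE 0.26, interval −0.60 to 0.46). Sf3b4 had 103, 123 and 315 CPM in AnnexinV-positive libraries against 38.1, 59.4 and 206 CPM in double-negative libraries, with a log2 fold change of 0.86 (SE 0.48, adjusted p = 0.399 in edgeR). Its AnnexinV-positive maximum came from library 3 alone, while the next highest was at 174 CPM.

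U2af1, which reads the AG at the end of the intron, had 207, 257 and 342 CPM in AnnexinV-positive libraries against 30.7, 150.3 and 406 CPM in double-negative libraries (log2 fold change 0.58, SE 0.42). Its double-negative values lay on both sides of the AnnexinV-positive range, with 2 counts in library 3 and 113 in library 6. U2af2, which binds the polypyrimidine tract beside it, had −0.33 (SE 0.40). Sf3b5 had 87.9 to 272 CPM in AnnexinV-positive libraries against 0 to 205 CPM in double-negative libraries (0.65, SE 0.56). Sf3b2 had 85.5 to 229 CPM in AnnexinV-positive libraries against 30.7 to 219 CPM in double-negative libraries (0.45, SE 0.47). Sf3a2 and U2af1l4 were below the filter, with 29 and 43 counts in all AnnexinV-positive and 41 and 18 in all double-negative libraries.

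Sf3a1 differed most between the sets of replicate numbers. In numbers 1 to 3 it had 207, 109 and 43.0 CPM in AnnexinV-positive libraries against 8.33, 16.3 and 15.4 CPM in double-negative libraries, where these are 2, 3 and 1 counts. In numbers 4 to 6 it had 104, 14.5 and 48.9 CPM in AnnexinV-positive libraries against 121, 89.0 and 61.1 CPM in double-negative libraries. The log2 fold change was 3.21 in the first set and −0.70 in the second, and over all libraries 0.73 (SE 0.69). The difference between the sets had an unadjusted p of 0.00689 and an adjusted p of 0.452 (edgeR, interaction term). Across the 56 members 2 had an unadjusted p under 0.05 for this difference, Sf3a1 and Hnrnpd, where all genes gave 239 of 3800 (6.29%), and 0 passed the adjusted threshold, against 3 of 3800 (0.0789%).

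The replicate sets also gave different family medians. Within numbers 1 to 3 they were 0.29 for SR protein, 0.21 for hnRNP, 0.92 for snRNP protein and 0.81 for SF3 and U2AF genes. Within numbers 4 to 6 they were −0.11, 0.04, 0.44 and 0.12 for the same families. The 11 Snrp genes were all positive in the first set and 10 of 11 in the second, where Snrpb had −0.21. Without double-negative libraries 1 to 3 the snRNP median was 0.46, with 10 of 11 Snrp genes positive, and the SF3 and U2AF median was 0.06. Without double-negative libraries 3 and 5 the snRNP median was 0.45, again with 10 of 11 Snrp genes positive. The labels do not call the sets batches, and within either set 0 members passed the threshold. Of all 4130 genes tested within numbers 4 to 6, 11 passed, so 0 members there says little.

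**Figure D5:**
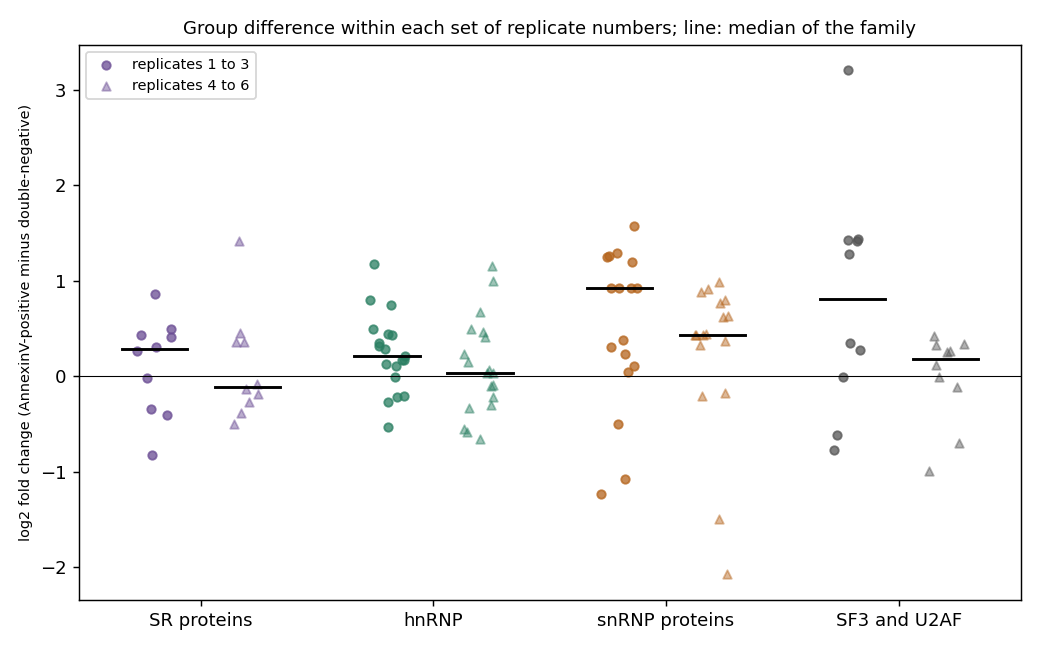
Log2 fold change (AnnexinV-positive minus double-negative, y axis) of the tested members within replicates 1 to 3 (circles) and within replicates 4 to 6 (triangles), by family; lines mark the medians of the members shown. The single circle above 3 is Sf3a1, and the snRNP medians lie above 0 in both sets.

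The spread between libraries of a group was compared next. The median SD of log2 CPM over the members was 0.48 in AnnexinV-positive libraries against 0.76 in double-negative libraries, and 45 of 56 members (80.4%) had the higher SD in double-negative libraries. The same held for all tested genes, with medians of 0.65 and 0.99 and 74.2% of 3800, and the median library total was 336130 counts for AnnexinV-positive cells, against 241575 for double-negative cells.

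On a scale per length, CPM divided by the summed exon length in kilobases, the order of members was led by the same 3 genes in both groups. This length joins the exons of all annotated transcripts of a gene, so it can exceed the length of a single transcript. Hnrnpa1 had 724 CPM per kb in AnnexinV-positive libraries against 563 in double-negative libraries, Hnrnpk 314 and 283, and Hnrnpa3 250.2 and 200.4. The shortest tested member, Snrpf with 0.861 kb of exons, ranked 4 in AnnexinV-positive libraries and 8 in double-negative libraries, at 242 and 124 CPM per kb. Srsf2 ranked 5 and 4, at 188 and 174 CPM per kb, and Snrnp48 was the lowest in AnnexinV-positive libraries, at 3.67 CPM per kb against 10.2 in double-negative ones.

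In 8 of the 56 tested members over 50% of the counts lay in values that were not whole: Hnrnpa1, Hnrnpa3, Hnrnpk, Hnrnpu, Srsf3, Snrpg, Snrpd2 and U2af1. For 40 of the 62 members every value was whole. What made these fractions, and whether it bears on the levels, was not tested.

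On GRCm38, in the GENCODE M21 annotation, Hnrnpa1 (ENSMUSG00000046434.16) lies on chromosome 15 at 103240432 to 103246692, Hnrnpu (ENSMUSG00000039630.10) on chromosome 1 at 178321108 to 178337797, and Srsf1 on chromosome 11 at 88047373 to 88053755. Snrpf lies on chromosome 10 at 93583029 to 93589706, Snrnp48 on chromosome 13 at 38204938 to 38227665 and Sf3b1 on chromosome 1 at 54985169 to 55027481. The annotation gives each of them as a protein-coding gene.

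The promoters show a feature that the name rule did not use. In the RefSeq table of GRCm38.p6, 53 of 62 members had 68 windows of 250 bases before a start site, and the motif CCGGAAG, the core of ETS factor sites, was present on either strand in 21 (30.9%), against 6.91% of all 32851 windows and 15.5% of the 3895 windows of tested genes. GGGCGG, the GC box, was in 72.1% of member windows, 32.7% of all windows and 61.5% of those of tested genes. CCAAT was in 42.6%, 33.9% and 35.8%, and TATAAA in 8.82%, 12.4% and 6.39%. Median CG dinucleotides per window were 20.5 for members, 6 for all windows and 18 for tested genes. These shares count windows, not genes, and windows of a gene can overlap, so a motif can count more than once. The stretches of Sf3b2 that start at 5295456 and 5295458 hold the same ETS letters. A share per gene was not computed. The last 100 bases before the start site are shown for 4 members whose stretch overlaps no annotated exon, to set an ETS motif beside genes of either sign; motif letters are in capitals, read 5′ to 3′ on the gene's strand, and neighbouring motifs may share letters.
Snrnp200, chr2:127208286-127208385, plus strand: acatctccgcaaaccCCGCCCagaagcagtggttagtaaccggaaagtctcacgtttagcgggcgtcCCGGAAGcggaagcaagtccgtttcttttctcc
Srsf5, chr12:80945399-80945498, plus strand: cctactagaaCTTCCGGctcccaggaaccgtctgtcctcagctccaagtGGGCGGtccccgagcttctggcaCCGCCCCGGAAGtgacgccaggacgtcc
Srsf9, chr5:115327077-115327176, plus strand: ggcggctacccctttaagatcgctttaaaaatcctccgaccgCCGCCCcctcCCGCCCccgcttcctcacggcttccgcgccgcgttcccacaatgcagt
Hnrnph1, chr11:50376890-50376989, plus strand: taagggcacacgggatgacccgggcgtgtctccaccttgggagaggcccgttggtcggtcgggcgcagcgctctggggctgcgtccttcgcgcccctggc
Snrnp200 (log2 fold change 0.89) and Srsf5 (−0.46) both hold the ETS letters in this stretch, Srsf9 (0.69) holds 2 GC boxes, and Hnrnph1 (−0.39) holds none of the 4 motifs there. The table lists 5 start sites for Hnrnph1, and the same stretch before 2 of the others holds a CCAAT box or a GC box. A match describes these letters and does not show that a factor binds.

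Other genes of the pathway, from 9 lists with 125 entries, gave the same count. Of the 90 entries tested, 0 passed the threshold in edgeR, against 1.87% of all tested genes, a share so low that 0 says little about the lists. The LSm proteins, which form rings like the Sm proteins, had 5 of 7 tested genes positive and a median of 0.63, led by Lsm7 (1.08, SE 0.38, adjusted p = 0.139 in edgeR) and Lsm4 (1.05, SE 0.41, adjusted p = 0.198). Factors of the U2 snRNP and branch point had 7 of 9 positive and a median of 0.42. Among them Ddx46, the helicase Prp5 of yeast, averaged 195 ± 69.8 CPM in AnnexinV-positive libraries against 62.6 ± 36.9 CPM in double-negative libraries (± SD, 6 libraries a group), with a log2 fold change of 1.68 (SE 0.47) and an adjusted p of 0.0629 in edgeR. It passed in 6 of 27 alternative fits. Rbm39, a relative of U2AF, had −0.45 (SE 0.23), with 0 of 6 AnnexinV-positive libraries above the double-negative median.

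SR-related proteins and SR kinases had 12 of 17 tested genes negative and a median of −0.17. Clk4, a kinase that phosphorylates SR proteins, averaged 53.8 ± 36.6 CPM in AnnexinV-positive libraries against 178 ± 58.9 CPM in double-negative libraries (± SD, 6 libraries a group). All 6 AnnexinV-positive libraries were below the double-negative median, with a log2 fold change of −1.72 (SE 0.49) and an adjusted p of 0.065 in edgeR, and Clk4 passed in 3 of 27 alternatives. Pnn, a protein of nuclear speckles, had 0.89 (SE 0.30, adjusted p = 0.127 in edgeR). For catalytic step factors and the Prp19 complex 6 of 12 were positive (median −0.03), with Cdc5l at 1.62 (SE 0.53, adjusted p = 0.108 in edgeR) and Syf2 at −0.65 (SE 0.42).

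Proteins of the U4/U6 and U5 particles had 7 of 12 positive (median 0.13), with Prpf4b at −0.58 (SE 0.43) and Prpf8, the core of the catalytic centre, at −0.41 (SE 0.37). Of hnRNP-class proteins under other names 14 of 20 were positive (median 0.16), with Rbmx at −0.65 (SE 0.32) and the helicase Ddx5 at −0.46 (SE 0.24). For hnRNP import and arginine methylation 4 of 6 were positive (median 0.31), with the import receptor Tnpo1 at 0.47 (SE 0.28) and the methyltransferase Carm1 at 0.86 (SE 0.72). The exon junction complex had 3 of 5 positive (median 0.07), with Eif4a3 at 0.60 (SE 0.64) and Rbm8a at −0.24 (SE 0.31). The SMN complex, which loads Sm rings onto small nuclear RNA, had 2 tested genes of 10, Strap at 0.34 (SE 0.32) and Smn1 at 0.39 (SE 0.74).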

How the data were processed

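Per the labels' protocols, medial cortex was dissociated, cells were sorted by annexin V and PI, and bulk libraries were made by modified smart-seq2. The deposited values are estimated counts: 8.84% of nonzero values are not whole (tolerance 1e-06) and hold 17.1% of all counts, so they were rounded. Another table deposited under the name TPM has column sums of 764764 to 1835685, was taken as a score, and served in alternatives. STAR, featureCounts, Trimmomatic and Seurat 4 and the builds GRCm38 and mm10 are listed, without roles, per the submitters' processing notes. The sources used here do not give the annotation, the strand setting or what made the fractions.

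Counts were filtered with filterByExpr (minimum count 10, minimum total 15), scaled by TMM and tested with edgeR 4.0.16 (R 4.3.3; robust quasi-likelihood, two-sided, Benjamini-Hochberg over 3800 genes, threshold 0.05). The design had assumed whole counts or estimates and was kept. CPM values use the scaled library sizes of the tested genes; 1 count is worth 2.41 to 15.4 CPM. SE is the fold change over the square root of F. No molecular identifiers are mentioned. DESeq2 1.42.0, limma 3.58.1 and other scalings, filters and library sets were alternatives. On 5 simulated data sets of this comparison with 200 changed genes, over 3072 to 3301 tested genes, 8.57% of 2-fold and 67.3% of 4-fold changes were found, and 4.23% of calls were false.

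The members and lists were chosen with earlier results of these data known. Named genes are, per family, the 5 with the smallest p and the 2 with the highest mean CPM, and 2 of each other list; others are given as counts, ranges or examples chosen after their values were seen. No pair of libraries in a group was a repeat (chi-square per degree of freedom 4.96 to 42.3). Libraries sharing a replicate number had correlations of −0.00694 to 0.0779 in their deviations from the group mean. No pair across the groups exceeded 0.106, so these correlations are too low to decide whether the numbers pair libraries. Of the symbols, 53292 were found in GENCODE M21.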

Additional observations from a re-analysis of the deposited data

Results flagged for a closer look

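The values of 25 named members and of the family sums were each examined for a library far from the rest of its group, over 60 groups of 6, where chance flags about 1 in 20. Hnrnpa1 in double-negative library 4 stood at 2627 CPM, while the other 5 double-negative libraries lay between 1417 and 1858 CPM (gap 0.635 of the range). Without that library the log2 fold change of Hnrnpa1 was 0.53 with an adjusted p of 0.165 in edgeR. Sf3b4 in AnnexinV-positive library 3 stood at 315 CPM, while the other 5 lay between 103 and 174 CPM (gap 0.668 of the range). No member differed between the sets of replicate numbers past the adjusted threshold.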

How the results depend on the processing

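No member passed in any of 27 alternative fits. Of 1161 alternative values of the 43 named genes, 1116 kept their direction and side of the threshold. A further 34 turned sign, and 11 passed the threshold, in named genes that are not members. Ddx46 and Clk4 do not account for all 11. The causes of the following shifts were not tested. Against 71 genes called (15 higher, 56 lower), DESeq2 called 201 (74 and 127), no filter 237 (101 and 136), the deposited TPM values 32 with a pseudocount of 1 (15 lower) and 9 with 0.1 (1 and 8), replicates 4 to 6 alone 11 (1 and 10), leaving out double-negative libraries 1 to 3 46 (24 lower) and leaving out double-negative libraries 3 and 5 15 (4 and 11). Higher calls were 42 with upper-quartile scaling (55 lower), 24 with limma voom and 28 with the replicate set as covariate. Leaving out 1 library gave 49 to 126 calls (10 to 49 higher, 39 to 77 lower), 126 without double-negative library 4, where higher calls were 49, and 34 higher without double-negative library 6. The set difference gave 13 calls without a filter.

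The median over all genes was 0.42 in TPM at pseudocount 1 and 0.51 at 0.1, against 0.06. There the member median was 0.48 and 0.49, that of hnRNP genes 0.36 and 0.39 (0.30 without a filter) and that of snRNP genes 1.10 and 1.11. With either pseudocount 78.6% of members were positive in TPM, against 67.8% of all tested genes at pseudocount 1 and 69.0% at 0.1. The SF3 and U2AF median was 0.81 within replicates 1 to 3, and 0.06 once double-negative libraries 1 to 3 were left out.

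The sign turned for 13 named genes. Within replicates 4 to 6 it did for Srsf1 (−0.08), Srsf10 (−0.27), Hnrnpk (−0.10), Sf3a1 (−0.70), Sf3b2 (−0.01) and Carm1 (−0.26), and within 1 to 3 for Srsf3 (−0.01) and Smn1 (−0.01). Without double-negative libraries 1 to 3 it did for Srsf5 (0.01), Srsf10 (−0.13), Sf3a1 (−0.02), Sf3b2 (−0.01), Sf3b1 (0.30) and Syf2 (0.13), and without 3 and 5 for Srsf7 (−0.04) and Smn1 (−0.08). With TPM and either pseudocount it did for Srsf10 (−0.15), Sf3b2 (−0.16), Sf3b1 (0.51) and Rbm8a (0.29). Srsf10 was −0.01 with RLE scaling and with DESeq2, and −0.07 to 0.20 when each library was left out in turn. Sf3b1 was 0.02 with upper-quartile scaling, 0.09 without a filter, and −0.21 to 0.04 when each library was left out in turn.

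Of 6 AnnexinV-positive libraries, 2 correlated best with the double-negative library of their own number. Each best match lay within the same set of replicate numbers, 1 to 3 or 4 to 6. All correlations were low, so this check cannot decide whether replicate numbers pair the libraries. With the replicate number as a block 71 genes were called (19 higher, 52 lower) and 0 members.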
